A study of Mus musculus with 4 samples.

Results

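Tyrosine breakdown in the liver was followed through 7 genes, *Tat*, *Hpd*, *Hgd*, *Gstz1*, *Fah*, *Qdpr* and *Pcbd1*, which were chosen by symbol and not by their values. They are 7 of the 35739 genes for which the authors deposited salmon TPM values (a length-corrected abundance that sums to the same total in every library), and all 7 passed the filter on low values, a mean of 1 TPM or more, which left 9581 genes for testing. Liver RNA came from WT mice (replicates 2 and 3) and from *Usp21* KO mice (replicates 1 and 3), which gives 2 libraries per genotype. The KO allele lacks exons 3 and 4 of *Usp21*, a gene for a ubiquitin-specific protease, in all tissues, and was kept on a mixed background of B6 and the strain of the targeted embryonic stem cells. The WT mice were littermates, and the study used mice of 10 to 11 weeks on a normal diet. The labels name no treatment, and the study anaesthetised all its animals. The sex of the mice, the number of mice behind each library, the time of day and the feeding state at collection were not given in the sources used here.

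Phenylalanine is converted to tyrosine in hepatocytes with tetrahydrobiopterin as the cofactor, and the spent cofactor is regenerated by the dehydratase PCBD1 and the reductase QDPR. Tyrosine then loses its amino group to tyrosine aminotransferase (TAT), the step that limits the pathway, and 4-hydroxyphenylpyruvate dioxygenase (HPD), homogentisate dioxygenase (HGD), maleylacetoacetate isomerase (GSTZ1) and fumarylacetoacetate hydrolase (FAH) carry the carbon skeleton to fumarate and acetoacetate. *Tat* is a classical target of glucocorticoids and of glucagon acting through cyclic AMP, and its mRNA is known to rise in fasting. The later enzymes are abundant in differentiated hepatocytes, and loss of *Fah* causes a severe tyrosinaemia.

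The 7 genes lie on 6 chromosomes of the GRCm38 build. In the GENCODE M21 annotation, *Tat* (ENSMUSG00000001670) spans chromosome 8 from 109990437 to 109999803 on the forward strand, with 12 exons and a coding sequence for 454 amino acids. *Hpd* (ENSMUSG00000029445) and *Qdpr* (ENSMUSG00000015806) are read from the reverse strand on chromosome 5, at 123171807 to 123182727 and at 45434021 to 45450236. *Hgd* (ENSMUSG00000022821) lies on chromosome 16 from 37580153 to 37632020, and *Gstz1* (ENSMUSG00000021033) on chromosome 12 from 87147165 to 87164723. *Fah* (ENSMUSG00000030630) lies on chromosome 7 from 84585159 to 84606722, and *Pcbd1* (ENSMUSG00000020098), the smallest with 104 amino acids, on chromosome 10 from 61089331 to 61094324. None of the stretches of 31 bases in the transcripts of *Tat*, *Hpd*, *Hgd*, *Fah* and *Pcbd1* occurred in a transcript of another annotated gene. For *Gstz1* 11.3% of such stretches were shared, mostly with the overlapping gene *Pomt2*, which had 3.01 to 3.79 TPM, and for *Qdpr* 14.5% were shared with the overlapping antisense gene *Gm42413*, so these values carry that uncertainty.

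The sequence before the start of *Tat* is shown because *Tat* was the member whose level differed most between the genotypes, and that of *Hpd* because *Hpd* was the most abundant member. Each line gives the 250 bases before the annotated start, 5′ to 3′ on the strand of the gene, from RefSeq on GRCm38.p6 (all 7 genes were found in that table). Capitals mark matches on either strand to the CCAAT box (CCAAT) or the GC box (GGGCGG), and no marked matches overlap.

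*Tat*, chr8:109990186-109990435, forward strand: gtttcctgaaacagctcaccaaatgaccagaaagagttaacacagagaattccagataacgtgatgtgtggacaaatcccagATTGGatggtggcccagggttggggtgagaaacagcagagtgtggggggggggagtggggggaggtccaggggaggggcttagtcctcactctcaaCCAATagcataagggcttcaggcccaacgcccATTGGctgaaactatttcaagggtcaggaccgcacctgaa

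*Hpd*, chr5:123182724-123182973, reverse strand: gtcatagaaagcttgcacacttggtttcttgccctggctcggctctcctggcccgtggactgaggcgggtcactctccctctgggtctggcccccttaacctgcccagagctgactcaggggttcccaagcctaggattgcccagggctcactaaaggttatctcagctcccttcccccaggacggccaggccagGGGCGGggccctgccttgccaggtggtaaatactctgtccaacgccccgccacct

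The *Tat* stretch held 3 CCAAT boxes, which began 168, 72 and 40 bases before the start, and no GC box. The *Hpd* stretch held 1 GC box, 55 bases before the start, and no CCAAT box. Among all 32851 such stretches, 33.9% held a CCAAT box and 32.7% a GC box. The hexamer AGAACA, part of the element bound by the glucocorticoid receptor, was found before 0 of the 7 genes and in 16.1% of all stretches. The core TGACG of the cyclic AMP response element was found before *Gstz1* alone among the 7 and in 17.8% of all stretches. The sequence TATAAA was found before *Hgd* and *Pcbd1*, and in 12.4% of all stretches. These matches describe the letters of these windows alone, and elements farther from the start were not searched.

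The libraries were first checked against their labels. *Usp21* stood at 4.07 and 6.29 (WT) and at 1.64 and 2.93 TPM (KO), with each KO library under each WT library (log2 fold change -0.92, adjusted p = 0.464 from limma). These values cover whole transcripts, of which the deletion removes exons 3 and 4. Leaving out single libraries gave log2 fold changes between -1.20 and -0.63. Salmon gave a TPM above 0 to between 12876 and 13620 genes per library, and TPM keeps no record of depth. A second table of counts scaled by the TMM method could be turned back into between 102898 and 148164 reads per library, but it listed 5 of the 7 genes at 0 everywhere, held 2 reads for *Tat* in WT replicate 3 and 2 reads for *Gstz1* in KO replicate 3, and listed at 0 in all libraries 428 of the 682 genes that had at least 100 TPM in every library. The TPM values were therefore used.

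All 7 genes were abundant in both genotypes. *Hpd* was the highest in every library, and ranked between 74 and 97 among all genes. In WT livers the order of mean levels was *Hpd* (1467 ± 121 TPM, SD, n = 2), *Gstz1* (431 ± 16.8 TPM), *Tat* (368 ± 128 TPM), *Hgd* (361 ± 8.17 TPM), *Qdpr* (352 ± 37.9 TPM), *Fah* (337 ± 18.9 TPM) and *Pcbd1* (280 ± 25.0 TPM). The WT libraries of *Hpd* were above those of every other member, and those of *Pcbd1* were below those of *Fah*. The neighbours between *Gstz1* and *Fah* in this order overlapped and did not differ beyond their spread. In KO livers *Tat* stood second with 624 ± 115 TPM (SD, n = 2), below *Hpd* (1288 ± 410 TPM) and above *Gstz1* (382 ± 22.6 TPM), and its libraries overlapped with those of neither. *Qdpr* (361 ± 87.4 TPM), *Hgd* (355 ± 98.8 TPM), *Fah* (304 ± 76.8 TPM) and *Pcbd1* (291 ± 45.4 TPM) followed and overlapped with one another. Together the 7 genes held between 0.317% and 0.406% of the TPM of a library.

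**Figure D1:**
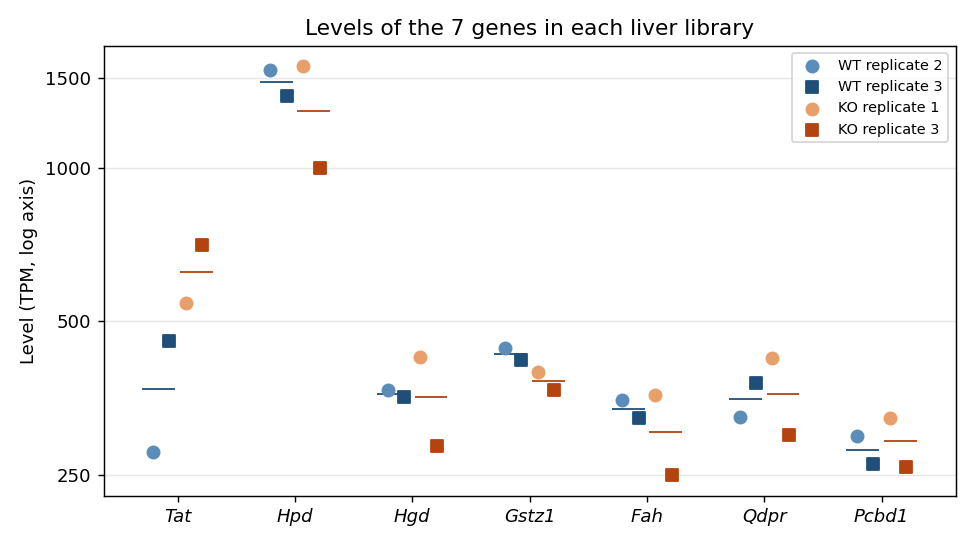
Level of each gene (TPM, log axis) in the 2 WT libraries (blue) and the 2 KO libraries (orange), with circles and squares for separate libraries and short lines for the mean of each genotype. *Tat* was at 278 and 458 TPM in WT livers, against 543 and 705 TPM in KO livers, while KO replicate 3 was the lowest library for each of the other 6 genes.

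*Tat* was the member with the largest difference, with more mRNA in the KO livers, although it did not pass the test over all genes. It measured 278 TPM in WT replicate 2, 458 TPM in WT replicate 3, 543 TPM in KO replicate 1 and 705 TPM in KO replicate 3, and each KO library lay above each WT library. The ratio of mean TPM, KO to WT, was 1.70, and the difference on the log2(TPM + 1) scale was 0.79 (standard error 0.29, 95% interval 0.07 to 1.52). The unadjusted p in limma was 0.0368 and the adjusted p 0.464. The WT libraries alone differed 1.65-fold in *Tat*, more than the step from the higher WT to the lower KO library. Leaving out WT replicate 2 gave a difference of 0.43, and leaving out WT replicate 3 gave 1.15. Without KO replicate 3 it was 0.61, and without KO replicate 1 it was 0.98.

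The genes of the 4 enzymes after TAT differed by between -0.22 and -0.05 on the same scale, and none passed the test. *Hpd* stood at 1553 and 1382 (WT) and at 1578 and 998 TPM (KO). KO replicate 1 was the highest and KO replicate 3 the lowest of the 4 libraries, so the genotypes overlapped (difference -0.22, 95% interval -0.89 to 0.45, adjusted p = 0.765 from limma). *Hgd*, whose product opens the aromatic ring, had 366 and 355 TPM in the WT mice and 425 and 285 TPM in the KO mice. Its WT libraries were almost equal and lay between the KO libraries (difference -0.05, 95% interval -0.63 to 0.53). *Fah*, the last enzyme, measured 350.4 and 324 TPM in WT livers, against 359 and 249.97 TPM in KO livers, with KO replicates again on either side of WT (difference -0.17, 95% interval -0.72 to 0.39). *Gstz1*, which also dechlorinates dichloroacetate, was the 1 member for which each KO library lay under each WT library. It stood at 443 and 419 (WT) and at 398 and 366 TPM (KO), a ratio of mean TPM, KO to WT, of 0.887. The difference was -0.17 on the log2(TPM + 1) scale (standard error 0.16, 95% interval -0.58 to 0.24), with an adjusted p of 0.697 in limma.

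The cofactor enzymes overlapped between the genotypes as well. *Qdpr* had 325 and 379 TPM in the WT mice and 423 and 299 TPM in the KO mice (difference 0.02, 95% interval -0.54 to 0.58). *Pcbd1*, whose protein also serves as a dimerization partner of the transcription factor HNF1, measured 298 and 262 TPM in WT livers, against 323 and 259 TPM in KO livers (difference 0.05, 95% interval -0.43 to 0.52). Their adjusted p-values in limma were 0.979 and 0.933. Intervals of this width still hold changes of about 0.5 on the log2 scale in either direction.

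**Figure D2:**
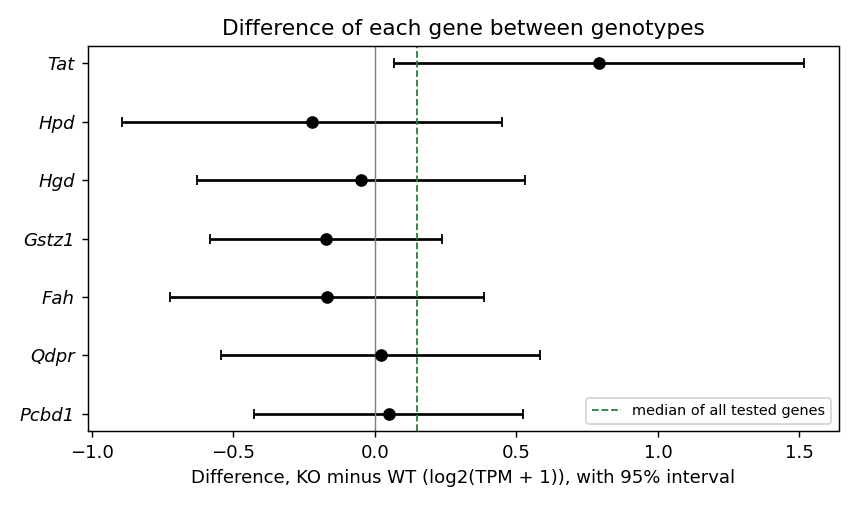
Difference between the genotypes for each gene (KO minus WT, log2(TPM + 1)), with points for the estimate from limma, bars for its 95% interval and a dashed line for the median of all tested genes (0.15). The interval of *Tat* ran from 0.07 to 1.52, and the intervals of the other 6 genes included 0.

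The adjusted p in limma was under 0.05 for 0 of the 7 genes, compared with 0.0835% of all tested genes (8 genes). The unadjusted p was under 0.05 for 1 of the 7 genes, *Tat*, and for 10.5% of all tested genes. The groups did not overlap for 2 of the 7 genes, compared with 45.3% of all tested genes. In 1 of them, *Tat*, KO was higher (34.4% of all tested genes), and in the other, *Gstz1*, KO was lower (10.9%). By mean log2(TPM + 1), 3 of the 7 genes were higher and 4 lower in KO. Their median difference was -0.05, compared with 0.15 for all tested genes. The other 6 members were all below that median, by 0.10 (*Pcbd1*) to 0.37 (*Hpd*), while *Tat* was 0.64 above it. With the libraries brought to a common upper quartile, the median of all tested genes went from 0.15 to 0.04. The difference of *Tat* was then 0.66 (unadjusted p = 0.0827 in limma), and those of the other 6 genes were between -0.36 and -0.085, with *Qdpr* and *Pcbd1* changing sign.

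*Tat* was next set against the rest of the pathway within each library, which removes any scaling of the whole library. In WT replicate 2 *Tat* was the lowest of the 7 genes, and in each of the other 3 libraries it was the second highest. It made up 7.69% and 12.8% of the summed TPM of the 7 genes in the WT libraries and 13.4% and 22.3% in the KO libraries. The ratio of *Tat* to *Fah*, the end of the pathway, was 0.793 and 1.42 in WT and 1.52 and 2.82 in KO. The ratio to *Hpd*, the next enzyme, was 0.179 and 0.332 in WT and 0.344 and 0.707 in KO. For *Hgd* and *Pcbd1* the ratio in KO replicate 1 (1.28 and 1.68) was below that in WT replicate 3 (1.29 and 1.75), so that these ratios overlapped. On the log2 scale, *Tat* less the mean of the other 6 genes was -0.70 and 0.08 in the WT libraries and 0.16 and 0.99 in the KO libraries. The means of the genotypes differed by 0.88, and the pooled SD between replicates was 0.57. The step between WT replicate 3 and KO replicate 1 was small beside the spread within either genotype. This value was 0.47 without KO replicate 3 and 1.30 without KO replicate 1, so its size rested largely on WT replicate 2 and KO replicate 3, and it was 0.49 without WT replicate 2.

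**Figure D3:**
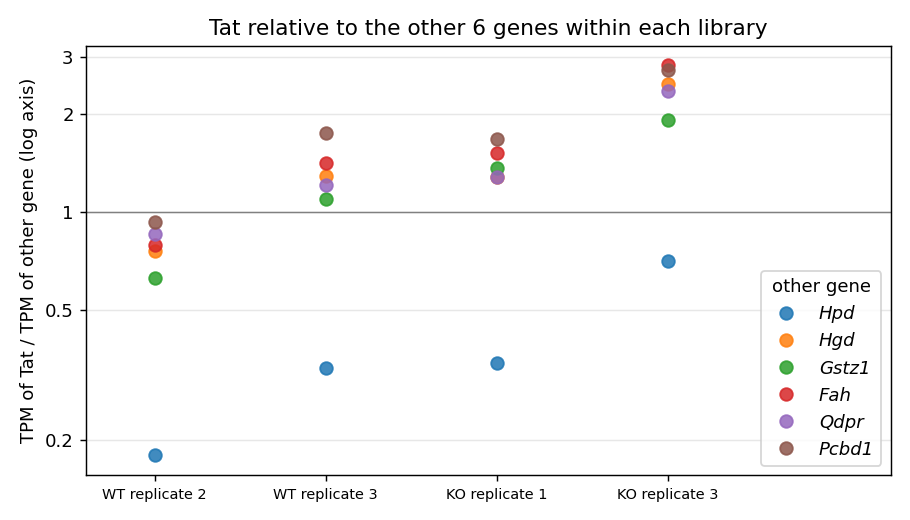
TPM of *Tat* divided by the TPM of each other gene in the same library (log axis), with 1 colour per gene and a grey line where both are equal. In WT replicate 2 every ratio was below 1 and in KO replicate 3 all but that to *Hpd* were 1.92 or higher, while WT replicate 3 and KO replicate 1 lay close together.

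The other 6 genes nearly shared an order of the libraries. KO replicate 3 was the lowest of the 4 libraries for 6 of the 6 genes, and KO replicate 1 was the highest for 5 of the 6 genes. Among 309 genes of like abundance (mean between 250 and 1400 TPM, a range set after the members' values were known), KO replicate 3 was the lowest library for 40.1% and KO replicate 1 the highest for 50.8%. Among all tested genes these shares were 22.9% and 45.9%. The summed TPM of the 6 genes was 3506 in KO replicate 1, 3336 and 3121 in the WT mice, and 2458 in KO replicate 3. *Tat* did not follow them, since it was highest in KO replicate 3. In bulk liver, fewer cells of a type and less RNA per cell cannot be told apart. The 10 hepatocyte markers were all present, and their summed TPM was 88899 and 72437 in WT and 78336 and 64102 in KO, lowest in KO replicate 3. *Alb*, at 43181 and 32024 TPM in WT livers, against 31006 and 27475 TPM in KO livers, was the largest part of that sum. Of the 10 markers, 2 were higher in both KO libraries, *Fgb* (difference 0.54) among them, and 2 were lower in both, *Alb* among them. Over all tested genes these shares were 34.4% and 10.9%. The median difference of the 10 markers was 0.03. The 6 Kupffer cell markers, all above 0 in every library, summed to 88.5 and 100.03 TPM in WT and to 51.6 and 135 TPM in the KO mice, the reverse order of the 6 genes. Their part in these levels was not tested. Several of these enzymes are also made in the kidney, and 4 of its 5 tubule markers were at 0 in all libraries, with the fifth, *Lrp2*, at most at 0.0471 TPM. Of the 7 pancreatic acinar markers, 5 were at 0 in all libraries, and *Cela1*, at 28.7 to 42.2 TPM, held most of their sum. Of the 6 bile duct markers, 2 passed the filter, and the list summed to 14.6 and 16.2 TPM in WT and to 38.3 and 24.5 TPM in KO. The 6 sinusoidal endothelial markers summed to between 41.6 and 59.6 TPM. The 6 stellate cell markers summed to 54.6 and 45.5 TPM in WT livers, against 84.1 and 63.4 TPM in KO livers. The 9 blood markers summed to between 722 and 936 TPM. Of 7 tested blood markers, 3 were lower in both KO libraries and 0 were higher (10.9% and 34.4% of all tested genes). Among the 3, *S100a8* stood at 2.26 and 29.1 (WT) and at 1.12 and 0.738 TPM (KO). The bile duct and stellate cell sums were higher in both KO libraries, as *Tat* was, but each was carried mostly by 1 gene. *Spp1* made 13.2 and 12.7 TPM of the bile duct sum in WT and 33.4 and 20.7 TPM in KO. *Dcn* made 42.6 and 34.1 TPM of the stellate cell sum in WT and 62.8 and 48.4 TPM in KO. *Sox9*, *Lrat* and *Des* overlapped. *Reln* was higher in both KO libraries (7.02 and 4.52 TPM in WT, 10.3 and 7.74 TPM in KO). So was *Krt19* (0.196 and 0.263 TPM in WT, 0.998 and 1.28 TPM in KO), which was under the filter. Both KO libraries were higher for 1 of 2 tested bile duct markers and 2 of 5 tested stellate cell markers (34.4% of all tested genes), and lower for 0. The part of these cell types in the level of *Tat* was not tested.

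Among the genes of like abundance, the difference of *Tat* was above that of 98.1%, and among all tested genes above that of 94.3%. The median of the 309 genes was 0.04. The 5 genes of this range with a larger difference than *Tat* included *Rps27*, *Hspa8*, *Rps3a1* and *Mup21*, named here after their values were seen. *Hspa8*, which encodes a constitutive heat shock protein, measured 382 and 718 TPM in WT livers, against 1299 and 1569 TPM in KO livers, with the same order of the libraries as *Tat*, an order that 5.88% of all tested genes had.

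**Figure D4:**
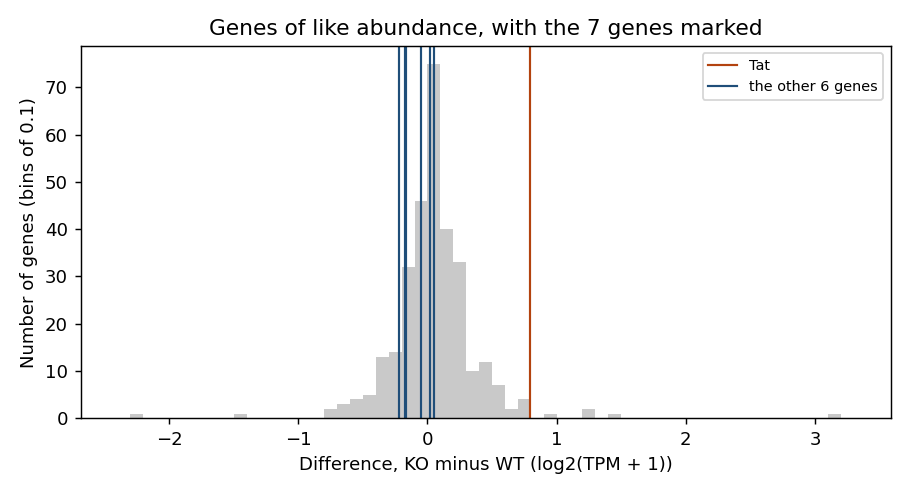
Number of genes (bins of 0.1) by difference between the genotypes (KO minus WT, log2(TPM + 1)) for 309 genes with a mean of 250 to 1400 TPM, with lines at the 7 genes. *Tat* (orange) lay at 0.79, above 98.1% of these genes, and the other 6 (blue) lay between -0.22 and 0.05.

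The genes whose pattern over the 4 libraries was most like that of *Tat* were sought among 4024 tested genes whose mean was 10 TPM or more, by the Euclidean distance between centred log2(TPM + 1) values. The closest was *Slc25a51*, which encodes a mitochondrial carrier for NAD, at a distance of 0.11. It stood at 7.998 and 12.8 (WT) and at 16.1 and 19.6 TPM (KO). *H1f2* (a linker histone, distance 0.18), *Cnot1* (the scaffold of the mRNA deadenylase complex, 0.21), *Ncor1* (a nuclear receptor corepressor, 0.22) and *Stip1* (a co-chaperone of HSP70 and HSP90, 0.23) followed. The other members of the pathway lay far down this order, from *Qdpr* (distance 1.05, place 2218) to *Hpd* (distance 1.40, place 3592). With 4 libraries this is a description of these samples.

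Genes around the pathway were then taken from a list of 18, of which 15 were tested. An adjusted p under 0.05 in limma was found for 0 of them, and an unadjusted p under 0.05 for 3, all higher in KO. The unadjusted share over all tested genes was 10.5%, in either direction. The genotypes did not overlap for 6 genes with KO higher and 2 with KO lower, shares close to those of all tested genes (34.4% and 10.9%), and the median difference was 0.18, close to the 0.15 of all tested genes. Leaving out WT replicate 3 gave a median of 0.065, leaving out KO replicate 1 gave -0.016, and leaving out KO replicate 3 gave 0.31. The median of all tested genes was then 0.146, 0.084 and 0.220. The largest differences were those of *Got1*, *Slc16a10* and *Aadat*. *Got1*, the cytosolic aspartate aminotransferase, had 98.1 and 83.8 TPM in the WT mice and 263 and 150.5 TPM in the KO mice. Each KO library lay above each WT library (difference 1.13, standard error 0.29, adjusted p = 0.464 from limma). Its mitochondrial counterpart *Got2*, at 209 and 160.4 TPM in WT livers, against 174 and 153 TPM in KO livers, overlapped (difference -0.16). *Aadat*, which transaminates aminoadipate and kynurenine, stood at 66.4 and 43.9 (WT) and at 83.9 and 85.2 TPM (KO) (difference 0.64). Among carriers, *Slc16a10*, which exports aromatic amino acids, had 16.1 and 12.05 TPM in the WT mice and 25.6 and 24.5 TPM in the KO mice (difference 0.80, adjusted p = 0.464 from limma). *Slc43a1* and *Slc3a2* overlapped, with differences of -0.57 and 0.27, and *Slc7a5* and *Slc7a8* had less than 1 TPM in every library.

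Tetrahydrobiopterin synthesis gave no common direction. *Gch1*, the entry enzyme, measured 48.1 and 57.6 TPM in WT livers, against 55.3 and 45.8 TPM in KO livers (difference -0.06). *Pts*, the next enzyme of the synthesis, overlapped too, with a difference of 0.18. *Spr*, the last enzyme of the synthesis, stood at 116 and 112 (WT) and at 99.5 and 92.0 TPM (KO), and both KO values were the lower ones (difference -0.25, adjusted p = 0.577 from limma). *Gchfr*, which feeds phenylalanine and tetrahydrobiopterin levels back on GCH1, had 226 and 212 TPM in the WT mice and 211 and 182 TPM in the KO mice. *Dnajc12*, a co-chaperone of the aromatic amino acid hydroxylases, and *Pcbd2*, the paralog of *Pcbd1*, were higher in both KO libraries, with differences of 0.45 and 0.42 and adjusted p-values of 0.536 and 0.524 in limma. *Fahd1* and *Fahd2a*, which share the fold of FAH, differed by 0.38 and 0.12, and *Hpdl*, the paralog of *Hpd*, was listed at 0 in all libraries.

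Because *Tat* is known to respond to glucocorticoids and fasting, genes known for the same responses were described beside it. Of the 16 glucocorticoid-induced genes, all were tested, 0 had an adjusted p under 0.05 in limma, and 7 had an unadjusted p under 0.05 with KO higher and 1 with KO lower. The groups did not overlap for 11 with KO higher and for 2 with KO lower, and the median difference was 0.54. Over all tested genes the unadjusted p was under 0.05 for 10.5%, the shares without overlap were 34.4% and 10.9%, and the median was 0.15. The smallest p-values were those of *Cdkn1a*, *Lpin1* and *Zbtb16*. *Cdkn1a*, an inhibitor of the cell cycle, measured 0.266 and 2.17 TPM in WT livers, against 14.2 and 9.10 TPM in KO livers. *Zbtb16*, a transcription factor, stood at 0.773 and 0.904 (WT) and at 4.61 and 2.83 TPM (KO). The WT mean of *Zbtb16*, 0.838 TPM, was under the filter on low values, which it passed only through the KO libraries. The counts of this list with KO higher include *Zbtb16*, so they partly follow from the filter. *Lpin1*, a phosphatidate phosphatase that the study shortlisted on these libraries, differed by 1.73. Within the list, *Tsc22d3* (GILZ, a mediator of glucocorticoid action) had 27.4 and 37.1 TPM in WT livers, against 45.9 and 67.1 TPM in KO livers (difference 0.78). It had the library order of *Tat*, as *Lpin1*, *Igfbp1* and *Pck1* of the list and 5.88% of all tested genes did. *Fkbp5*, a chaperone of the glucocorticoid receptor, overlapped, with 9.35 and 10.5 TPM in WT livers, against 14.9 and 9.96 TPM in KO livers. *Tdo2*, which opens the ring of tryptophan, stood at 803 and 748 (WT) and at 1124 and 930.1 TPM (KO) (difference 0.40). *Per1*, which is also a clock gene, was lower in both KO libraries, with 3.84 and 4.07 TPM in WT livers, against 1.90 and 1.59 TPM in KO livers (difference -0.86, adjusted p = 0.464 from limma).

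Of the 16 fasting-induced genes, 15 were tested, and 0 had an adjusted p under 0.05 in limma, while 6 had an unadjusted p under 0.05 (10.5% of all tested genes), all with KO higher. The genotypes did not overlap for 9 with KO higher and 1 with KO lower (34.4% and 10.9% of all tested genes), and the median difference was 0.63, beside 0.15 for all tested genes. This list shares *Pck1*, *Igfbp1* and *Sds* with the glucocorticoid list and *Got1* with the list around the pathway, so the counts are not separate evidence. *Got1*, *G6pc1* and *Irs2* had the smallest p-values. *G6pc1*, the catalytic subunit of glucose-6-phosphatase, measured 22.4 and 31.6 TPM in WT livers, against 56.4 and 173 TPM in KO livers, in the order of *Tat* (difference 1.85, standard error 0.52, adjusted p = 0.464 from limma). *Pck1*, the gluconeogenic carboxykinase, stood at 476 and 559.9 (WT) and at 581 and 853 TPM (KO), again in that order (difference 0.45), which 5.88% of all tested genes had. *Irs2*, an adaptor of the insulin receptor, had 1.08 and 0.656 TPM in the WT mice and 2.16 and 3.09 TPM in the KO mice. *Ppargc1a*, which the study also singled out and reported as higher in KO by RT-qPCR, had 0.681 and 0.482 TPM in the WT mice. In the KO mice it had 2.43 and 1.19 TPM (difference 0.80). Genes such as *Irs2* and *Ppargc1a*, with WT means of 0.868 and 0.582 TPM, passed the filter on low values only through the KO libraries. The count of genes without overlap and with KO higher includes them. The count with an unadjusted p under 0.05 in limma includes *Irs2*. Both counts, and their distance from the shares of all tested genes, therefore partly follow from the filter. *Fbp1*, *Gpt2* and *Asns* were lower in KO by mean, with differences of -0.15, -0.10 and -0.03.

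Of the 13 known regulators of *Tat*, 0 had an adjusted p under 0.05 in limma and 3 an unadjusted p under 0.05, all higher in KO. Over all tested genes, 10.5% had an unadjusted p under 0.05 in either direction. The genotypes did not overlap for 5, each with KO higher, a share close to the 34.4% of all tested genes, and the median difference was 0.29. That median was 0.081 without KO replicate 1, when the median of all tested genes was 0.084, and 0.52 without KO replicate 3. *Hnf4a*, a nuclear receptor of hepatocytes, measured 112 and 105 TPM in WT livers, against 171 and 155 TPM in KO livers (difference 0.59, adjusted p = 0.464 from limma). *Creb1*, the factor that answers cyclic AMP, stood at 0.681 and 1.12 (WT) and at 2.59 and 2.12 TPM (KO). The WT mean of *Creb1*, 0.901 TPM, was under the filter on low values, which it passed only through the KO libraries. Both counts of regulators with KO higher include *Creb1*, so they partly follow from the filter. *Foxo1*, which insulin restrains, had 3.55 and 4.95 TPM in the WT mice and 6.47 and 7.74 TPM in the KO mice. *Nr3c1*, the glucocorticoid receptor itself, measured 8.29 and 7.71 TPM in WT livers, against 13.5 and 8.97 TPM in KO livers (difference 0.42, adjusted p = 0.563 from limma). *Hsd11b1*, which reactivates glucocorticoids in the liver, overlapped, with 499 and 393 TPM in WT livers, against 371 and 468 TPM in KO livers.

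**Figure D5:**
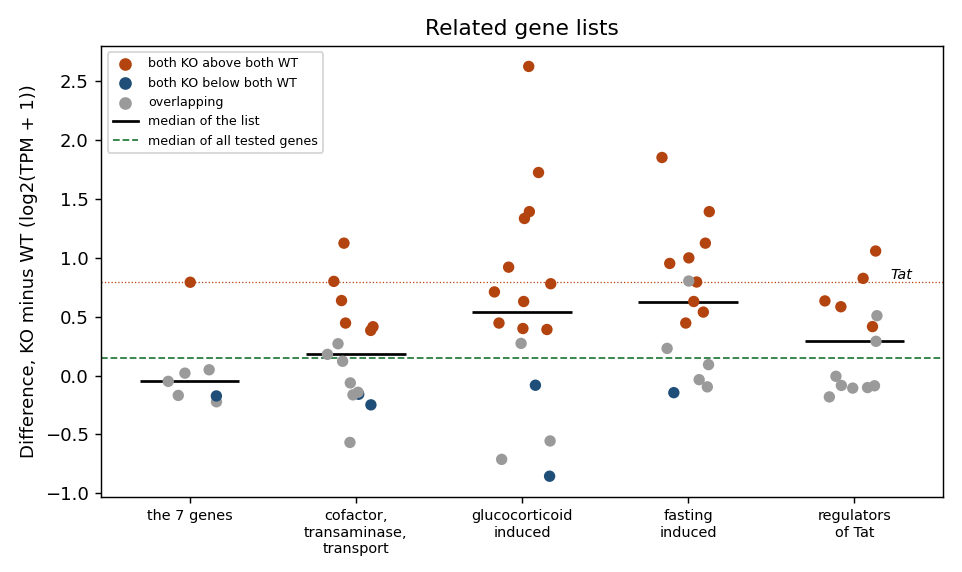
Difference between the genotypes (KO minus WT, log2(TPM + 1)) for each tested gene of the 7 members and 4 lists, coloured by whether the KO libraries were both above WT (orange), both below (blue) or overlapping (grey), with medians as black lines, the median of all tested genes as a dashed line and *Tat* as a dotted line. The list medians were 0.18, 0.54, 0.63 and 0.29, compared with -0.05 for the 7 genes and 0.15 for all tested genes.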

How the data were processed

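Salmon, HTSeq, edgeR and Partek are named in the submitters' processing notes, and versions, annotation release and strand setting are not given in the sources used here. The authors deposited TPM per Ensembl gene on mm10 and the same values as log2(TPM + 1). They also deposited HTSeq counts scaled by TMM as a CPM signal, and its log2 table. Of the CPM values 100% were whole multiples of the value of 1 read (tolerance 0.02 reads). All columns were matched to samples.

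Genes averaging 1 TPM or more over all libraries were fitted on log2(TPM + 1) with limma 3.58.1 (eBayes with trend, two-sided). Benjamini-Hochberg adjustment was over all 9581 genes, with no covariate. A gene under 1 TPM in 1 genotype could pass this filter through the other genotype. The prior degrees of freedom were 3.62. With 2 libraries against 2, an exact permutation test cannot give a p below 0.333. The labels number the libraries within a genotype and do not say how many mice each holds, so p-values measure only the spread between these libraries, which may be technical. Alternatives were other pseudocounts, filters and scaling, no moderation, the CPM table, edgeR 4.0.16 and DESeq2 1.42.0 on recovered reads, and each library left out. The limma, edgeR and DESeq2 fits, and no other step, were run on simulated data with known differences.

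Members, lists and named genes (all members, all genes of the list around the pathway, the 3 smallest p-values of each other list and preset genes of it, and the 5 genes most like *Tat*) were chosen with earlier results of these data known. Some genes of these lists are not reported here. *G6pc* was matched as *G6pc1* by its identifier.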

Additional observations from a re-analysis of the deposited data

How the results depend on the processing

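No paired analysis was possible because the genotypes share only 1 replicate number in the labels. The number of members with an adjusted p under 0.05 was 0 in limma under every alternative on TPM that kept 2 libraries per genotype. It was also 0 in the CPM table and in edgeR and DESeq2 on recovered reads. There only 2 of the 7 members had any reads, 2 reads each, so these fits could not call a member. The unadjusted p of *Tat* in limma was under 0.05 in the fit reported, but not without moderation or with upper quartile scaling. The direction of *Tat* held in all fits on TPM (0.43 to 1.15 with each library left out, adjusted p from 0.441 to 0.817 over the alternatives), and *Tat* less the other 6 genes lay between 0.47 and 1.30 with each library left out. The number of members whose groups did not overlap was 4 with upper quartile scaling, 0 in the CPM table, and 2 to 7 with each library left out, 7 being the count without KO replicate 1 and also without KO replicate 3, when 1 KO library is left. With upper quartile scaling *Qdpr* and *Pcbd1* changed sign, to -0.11 and -0.085, and the medians of the lists around the pathway, of glucocorticoid and fasting genes and of regulators were 0.05, 0.40, 0.50 and 0.16. With each library left out, the difference ranged from -0.55 to 0.11 for *Hpd*, -0.34 to 0.24 for *Hgd*, -0.43 to 0.090 for *Fah*, -0.23 to 0.27 for *Qdpr* and -0.11 to 0.21 for *Pcbd1*, and leaving out KO replicate 3 turned the sign of the first 3. The median of the list around the pathway ranged from -0.016 (without KO replicate 1) to 0.31, an alternative chosen after seeing the data. The median of all tested genes ranged from 0.084 (without KO replicate 1) to 0.220 with each library left out. On 2 reads each in the CPM table, *Tat* and *Gstz1* had the opposite sign, at -2.14 and 2.14 in limma, -3.23 and 3.15 in edgeR, and -2.70 and 2.53 in DESeq2, and *Tat* less the other genes could not be computed there. Over all tested genes, the calls past the adjusted threshold numbered 4 without the filter, 0 without moderation (806 with an unadjusted p under 0.05), 1 in the CPM table, 1 in DESeq2, 12 in edgeR and 0 to 0 with each library left out (542 to 1188 unadjusted). The cause of these shifts was not tested.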
